A study of Mus musculus with 16 samples.

Results

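The lungs of NNK-injected mice that ate selenocystine were compared with the lungs of NNK-injected mice on the basal diet. The members are the 4 arrays titled NNK+SECY and the 4 titled NNK, which are 8 of the 16 arrays of the study; they were chosen by title and not by any measured value. All mice were females of A/J, an inbred strain prone to lung tumours, fed AIN-76, a purified diet holding 0.35 ppm selenium. NNK is a nitrosamine found in tobacco and was given once, as an intraperitoneal injection of 10 uM in 0.2 mL of saline, and the lungs were taken 13 days later. The NNK+SECY mice received 15 ppm selenocystine (SECY) in the diet for the last 10 days, beginning 3 days after the injection, and the NNK mice received none. The other 8 arrays hold 4 Untreated mice and 4 SECY mice, which had the selenocystine diet for 10 days without NNK.

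Each array carried the lung RNA of 1 mouse in the red dye (Cy5) and an equal pool of the 4 Untreated lung RNAs in the green dye (Cy3), with no dye swap, so every value below is a log2 ratio of a mouse to the same pool. The 8 arrays were scanned on the same day, but the NNK arrays lay on slides 1 to 4 and the NNK+SECY arrays on slides 5 to 8, so slide and diet cannot be told apart in this comparison. The Untreated arrays shared the slides of the NNK arrays, and the SECY arrays those of the NNK+SECY arrays. The median Cy5 signal was 78.6 to 94.2 on the NNK arrays and 90.6 to 103 on the NNK+SECY arrays, and 66.3% to 72.6% against 75.7% to 79.3% of Cy5 spots stood well above background. The arrays of a group agreed to a like degree, with a mean correlation to the other 3 arrays of 0.43 to 0.51 for NNK and 0.47 to 0.56 for NNK+SECY over all tested probes. Markers of club and alveolar type 2 cells were the brightest of the cell type lists, with summed levels of 17.8 to 17.9 and 17.4 to 17.5 (log2) over the 8 arrays. In whole lung, fewer cells of a type and less RNA per cell cannot be told apart.

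Selenocystine is the oxidised dimer of the amino acid selenocysteine. Cells can draw selenium from it to build selenoproteins such as the glutathione peroxidases and thioredoxin reductases, and its reduction by thiols can cycle and produce oxidants. The transcription factor NRF2, encoded by Nfe2l2, is held back by KEAP1 until reactive compounds modify KEAP1; it then pairs with small MAF proteins at antioxidant response elements and raises genes for quinone reduction, glutathione use, thioredoxin recycling and NADPH supply. NNK is activated by cytochromes P450 of the lung to products that alkylate DNA, and DNA damage activates the transcription factor p53.

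The antioxidant response element has the core TGACNNNGC, which was searched on both strands in RefSeq promoter windows (assembly GRCm38.p6, 250 bases before to 50 bases after each listed start). The core occurred in 28.3% of the 46 matched genes that were higher in NNK+SECY (13 genes), in 15.4% of the 162 matched genes that were lower (25 genes), in 16% of all 12836 matched genes tested, and in 12.4% of all 32851 windows. A gene was counted where any of its windows held the core, so genes with more windows had more chances. These shares were not tested. Of the 27 oxidant-defence genes that rose, which are part of the higher genes, 22 had a window and 8 of these held the core (36.4%). Stretches of 100 bases from 4 of them are shown because these genes stand for the 4 enzyme groups described next: glutathione conjugation (Gsta3), glutathione synthesis (Gclm), thioredoxin recycling (Txnrd1) and NADPH supply (G6pdx). Capitals mark the core, read along the strand of the gene.
Gsta3, chr1:21240419-21240518, plus strand: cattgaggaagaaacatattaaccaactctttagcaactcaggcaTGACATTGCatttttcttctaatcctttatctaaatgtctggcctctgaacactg
Gclm, chr3:122245378-122245477, plus strand: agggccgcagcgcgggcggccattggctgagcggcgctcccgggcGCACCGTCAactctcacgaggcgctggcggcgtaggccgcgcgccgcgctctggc
Txnrd1, chr10:82859069-82859168, plus strand: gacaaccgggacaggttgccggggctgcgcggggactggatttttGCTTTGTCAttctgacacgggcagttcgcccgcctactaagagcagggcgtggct
G6pdx, chrX:74428883-74428982, minus strand: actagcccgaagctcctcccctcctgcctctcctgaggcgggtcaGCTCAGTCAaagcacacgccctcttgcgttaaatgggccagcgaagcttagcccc

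The first base of the core lay 121 bases before the start in Gsta3, on the strand of the gene, and 134, 92 and 57 bases before the start in Gclm, Txnrd1 and G6pdx, on the opposite strand. Txnrd1 has 3 listed starts and the core stands before 1 of them. The windows of Nqo1, Ces1g, Gstm1, Gstp1 and Gsta1, which also rose, did not hold these letters. A match is a description of the letters and not of a bound site.

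Of 30317 probes tested, 89 were higher in NNK+SECY than in NNK (0.294%) and 392 were lower (1.29%) at an adjusted p under 0.05 (limma, Benjamini-Hochberg over all tested probes). Taking the brightest probe of each of 21000 genes, 65 genes were higher (0.31%) and 305 were lower (1.45%). The 4 arrays of one group lay wholly above the 4 of the other for 2526 probes (8.33%), among them 88 of the 89 higher and 391 of the 392 lower probes. The median change over all genes was near 0, and 49.1% of them were above 0. The higher genes were led by enzymes of oxidant defence and detoxification. The 49 gene lists examined below were written with earlier results of these data known.

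Quinone and aldehyde handling rose through 4 of 21 tested enzymes, and none of the 21 fell; the median change of the list was 0.19. Nqo1, which reduces quinones by 2 electrons at once, had the largest change of the genes called higher. Its log2 ratios were 0.20, 0.06, 0.24 and 0.22 on the NNK arrays and 1.60, 1.84, 1.17 and 1.62 on the NNK+SECY arrays. Every NNK array lay near the untreated pool and every NNK+SECY array far above it, with no overlap. The change was 1.38 ± 0.13 (SE, n = 4 per group; 2.6-fold; limma adjusted p = 4.44e-05). Aox1, an aldehyde oxidase, rose by 0.76 ± 0.08, from between -0.34 and -0.11 to between 0.46 and 0.61. Aldh1a1, a retinal dehydrogenase that is abundant in club cells, rose by 0.58 ± 0.08, and Cbr3, a carbonyl reductase, by 0.49 ± 0.09. The 17 other members did not pass, among them Cbr1 at 0.06 and Nqo2 at 0.16.

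Glutathione S-transferases, which join glutathione to reactive compounds, rose in 9 of 21 tested genes, with a list median of 0.28 and none lower by the brightest probe. Arrays of the groups did not overlap for 13 of the 21, against 8.33% of all probes. Gsta3 measured 0.12, -0.01, 0.15 and -0.00 on the NNK arrays and 0.99, 1.10, 1.21 and 1.05 on the NNK+SECY arrays. Every NNK+SECY array read close to 1 above the NNK arrays, and the change was 1.02 ± 0.08 (2.03-fold; limma adjusted p = 4.4e-06), and a second probe gave 0.73. Gstm1 measured -0.18, -0.05, 0.01 and -0.06 against 0.77, 1.07, 0.93 and 0.93, a change of 1.00 ± 0.09 (limma adjusted p = 1.71e-05). Gstp1 rose by 0.93 ± 0.08 on its brightest probe and 0.90 on another. Gsta1, Gstm3 and Gsta2 rose by 0.90, 0.85 and 0.78, and Gsto1, Gstm5 and Gstm6 by 0.42, 0.31 and 0.28. The theta class (Gstt1, Gstt2, Gstt3) and Gstm4 lay between -0.12 and 0.00 and did not pass. Gstm7 read -0.09 on its brightest probe, while its dimmer second probe fell by 0.53 ± 0.11 (limma adjusted p = 0.0157). Genes of the alpha and mu classes are close copies, so a probe may take signal from a neighbour.

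**Figure D1:**
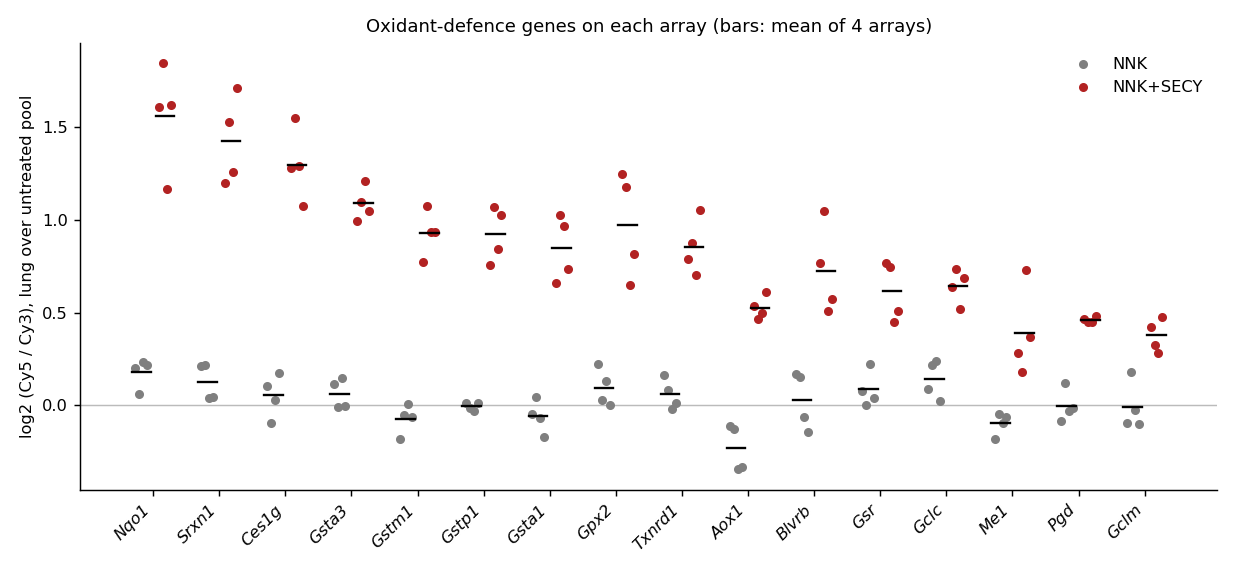
Log2 ratio of lung RNA to the untreated pool (vertical axis) on each NNK array (grey) and each NNK+SECY array (red) for 16 oxidant-defence genes (horizontal axis), with a bar at the mean of 4 arrays. The groups do not overlap for any gene shown; Nqo1 moves from between 0.06 and 0.24 to between 1.17 and 1.84, and Gclm shows the smallest step, 0.39.

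Glutathione synthesis and recycling rose in 3 of 13 tested genes, with a list median of 0.13. Gclc, the catalytic subunit of the rate-limiting enzyme of glutathione synthesis, measured 0.09, 0.22, 0.24 and 0.02 on the NNK arrays and 0.63, 0.73, 0.52 and 0.69 on the NNK+SECY arrays. The groups were clearly apart, and the change was 0.50 ± 0.09 (limma adjusted p = 0.00338). Gclm, its modifier subunit, changed by 0.39 ± 0.09 (limma adjusted p = 0.0428). For Gclm the Cy5 signal rose by 0.12 and the Cy3 signal of the common pool fell by 0.27, and the call was lost in 14 of 24 alternative analyses, including the removal of any array but NNK 2. Gsr, which regenerates reduced glutathione, rose on all 3 of its probes, by 0.53, 0.37 and 0.47. Slc7a11, the cystine importer, stood at 0.19 and Gss at 0.15, and neither passed.

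In the thioredoxin system 2 of 13 tested genes rose. Srxn1, which repairs over-oxidised peroxiredoxins, measured 0.21, 0.22, 0.04 and 0.04 on the NNK arrays and 1.20, 1.53, 1.26 and 1.71 on the NNK+SECY arrays. Its lowest NNK+SECY array was thus far above its highest NNK array, and the change was 1.29 ± 0.13 (2.45-fold; limma adjusted p = 5.33e-05). Its dimmer probes gave 0.56 and 0.42 and were also called. Txnrd1, the cytosolic thioredoxin reductase, measured 0.16, 0.08, -0.02 and 0.01 against 0.79, 0.87, 0.70 and 1.05, a change of 0.79 ± 0.09 (limma adjusted p = 0.000232). The mitochondrial Txnrd2 stood at -0.07. Prdx1, Txn1 and Prdx6 stood at 0.38, 0.34 and 0.34 without passing (limma adjusted p between 0.169 and 0.364).

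Enzymes that supply NADPH rose in 4 of 10 tested genes, with a list median of 0.21. Pgd, of the pentose phosphate pathway, measured -0.08, 0.12, -0.03 and -0.01 on the NNK arrays and 0.47, 0.45, 0.45 and 0.48 on the NNK+SECY arrays. The NNK+SECY arrays were nearly equal to each other and all above the NNK arrays, by 0.46 ± 0.07 (limma adjusted p = 0.00107), and a second probe gave 0.42. Me1, the cytosolic malic enzyme, rose by 0.49 on each of 2 probes. G6pdx, the entry enzyme of the pathway, rose by 0.31 ± 0.06, and this call was lost without NNK 4 or NNK+SECY 2. Taldo1, transaldolase, changed by 0.29 ± 0.06 and lost its call in 13 of 25 alternatives, including the removal of any array but NNK+SECY 3. With NNK 4 left out the list held 2 called members.

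The carboxylesterases, which hydrolyse esters and amides, held 2 called genes of 12. Ces1g measured 0.10, -0.09, 0.03 and 0.18 on the NNK arrays and 1.28, 1.55, 1.29 and 1.07 on the NNK+SECY arrays. The lowest NNK+SECY array stood far above the highest NNK array. Its probes gave 1.24 ± 0.08 and 1.28 ± 0.09 (limma adjusted p = 1.41e-06 each), and Ces1g was the only gene to pass a test against a change of at least 1.5-fold (limma treat, adjusted p = 0.00456). Ces1f rose by 0.86 ± 0.09. Ces1c stood at 1.04 with an SE of 0.79 and did not pass. The Ces1 genes are close copies, so their probes may share signal.

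Conjugation and export held 2 called genes of 16. Ugt1a6b, a glucuronosyltransferase, rose by 0.76 ± 0.10, with a dim second probe at 0.14; its probe may also read Ugt1a6a. Abcc1, an exporter of glutathione conjugates, changed by 0.20 ± 0.05 and lost its call in 15 of 24 alternatives, including the removal of any array but NNK+SECY 3. For Abcc1 the Cy5 signal rose by 0.097 and the Cy3 signal of the common pool fell by 0.104. Its dimmer probes read 0.07 and 0.135 and were not called. In heme handling, Blvrb, a flavin and biliverdin reductase, rose by 0.69 ± 0.11, the only called gene of 9. Hmox1, the inducible heme oxygenase, measured -0.07, -0.26, -0.17 and -0.26 on the NNK arrays and -0.11, -0.23, -0.11 and -0.11 on the NNK+SECY arrays. Its groups overlapped and its change was 0.05 ± 0.07 (limma adjusted p = 0.891). Outside the lists, Gbe1, the glycogen branching enzyme, rose by 0.88 ± 0.10 and Pir, pirin, by 0.60 ± 0.11.

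The regulators themselves did not pass. All 4 probes of Nfe2l2 stood between -0.01 and 0.16 (0.11 ± 0.10 on the brightest), and Keap1 stood at 0.03 ± 0.07. None of the 9 genes of NRF2 and its partners was called, and the list median was 0.04.

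**Figure D2:**
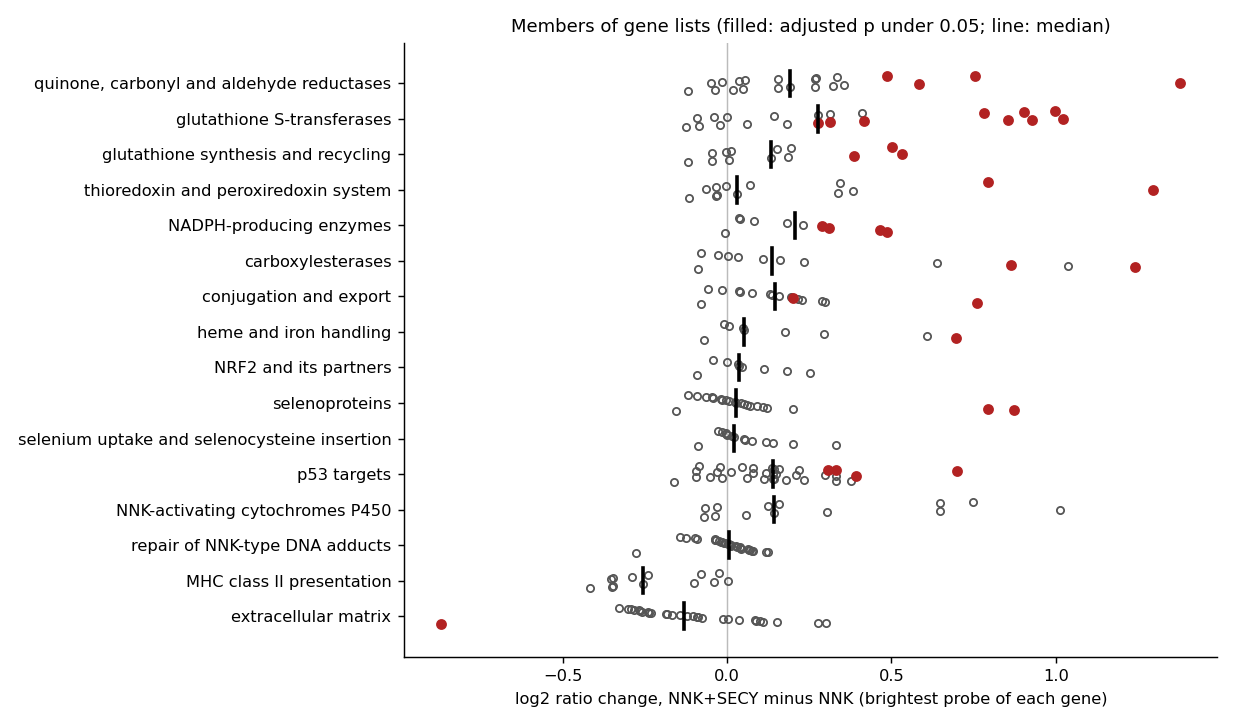
Log2 ratio change from NNK to NNK+SECY (horizontal axis) of every tested member of 16 gene lists (rows), 1 point per gene by its brightest probe, filled where the limma adjusted p was under 0.05, with a line at the list median. Filled points lie to the right in the oxidant-defence lists, where 9 of 21 glutathione S-transferases rose, and the list of MHC class II genes has a median of -0.25 with no filled point.

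Of 22 tested selenoproteins, 2 rose and none fell, and the list median was 0.03. Besides Txnrd1 this was Gpx2, the gastrointestinal glutathione peroxidase, which measured 0.22, 0.03, 0.13 and 0.00 on the NNK arrays and 1.24, 1.18, 0.65 and 0.81 on the NNK+SECY arrays. The groups did not overlap, and the change was 0.87 ± 0.11 (limma adjusted p = 0.00055). The remaining 20 lay between -0.15 and 0.20. Gpx1, the cytosolic peroxidase whose mRNA is known to depend on selenium supply, measured -0.11, -0.14, -0.17 and -0.32 against 0.01, -0.19, -0.12 and -0.41, which overlapped (0.01 ± 0.09). Selenow, likewise selenium-dependent in many tissues, stood at -0.02 ± 0.07 and Gpx3, the plasma peroxidase, at -0.09 ± 0.14. Selenop, the selenium carrier of plasma, stood at 0.12 ± 0.21, and its NNK+SECY arrays read 0.05, -0.06, 0.76 and 0.01, so that replicate 3 alone was high. None of 15 tested genes of selenium uptake and selenocysteine insertion was called; Scly, the lyase that frees selenium from selenocysteine, stood at -0.00 ± 0.05.

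Among 34 tested p53 targets, 4 rose and none fell; 26 lay above 0, the median was 0.14, and 10 had groups that did not overlap, against 8.33% of all probes. Psrc1, a mitotic spindle protein, measured 1.06, 0.69, 0.60 and 0.53 on the NNK arrays and 1.59, 1.36, 1.26 and 1.46 on the NNK+SECY arrays. It was already above the untreated pool on every NNK array and higher still on every NNK+SECY array, by 0.70 ± 0.14 (limma adjusted p = 0.00941). On the 4 Untreated arrays it read between -0.16 and 0.17, and on the 4 SECY arrays between 0.64 and 1.29. Its dimmer probes gave 0.05 and 0.20, and its call was lost on Agilent's processed signals and on the authors' deposited values. Ddit4l, an inhibitor of mTOR signalling, rose by 0.39, 0.38 and 0.31 on its 3 probes. Gdf15, a stress-induced cytokine, rose by 0.33 ± 0.07, and Plk3, a stress kinase, changed by 0.31 ± 0.07 but lost its call when any of the 8 arrays was left out. With Agilent's processed signals, or with the authors' deposited values, 1 of the 4 targets was called.

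Other p53 targets differed in how their probes read. Ccng1, cyclin G1, stood at 0.33 ± 0.12 on its brightest probe, which did not pass, and at 0.52 ± 0.10 on its second, which did (limma adjusted p = 0.0116); neither probe's groups overlapped. Sfn, the 14-3-3 sigma protein, is a p53 target outside the list and was added after its values were seen; its dim probe fell by 0.73 ± 0.10 (limma adjusted p = 0.00107), while its brightest read -0.10 and its last -0.14. Cdkn1a, the cell cycle inhibitor p21, measured -0.19, 0.38, 0.51 and -0.09 against 0.35, 1.03, -0.08 and 0.63. Its groups overlapped widely (0.33 ± 0.22). Mdm2, the negative regulator of p53, stood at 0.05 ± 0.07. None of 30 tested genes for repair of NNK-type DNA adducts was called (median 0.01, range -0.28 to 0.12), and Mgmt, which removes alkyl groups from guanine, stood at -0.10 ± 0.06.

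None of 13 tested cytochromes P450 that can activate NNK was called. Cyp2a5, a main NNK-activating enzyme of the mouse, measured -1.19, -1.26, 0.07 and -0.22 on the NNK arrays and -0.21, 0.56, -0.36 and 0.00 on the NNK+SECY arrays. NNK 1 and NNK 2 were low and the groups overlapped, so that its change of 0.65 ± 0.36 did not pass. Cyp2f2, the abundant P450 of club cells, stood at -0.04 ± 0.08. Cyp1a1 read 1.40, 0.95, -0.14 and 1.82 on the NNK+SECY arrays and -0.19 to 0.24 on the NNK arrays. It was thus high on 3 of 4 arrays and did not pass (1.01 ± 0.29; limma adjusted p = 0.128). Scd1, the stearoyl-CoA desaturase, was the only called gene of 30 in fatty acid synthesis and oxidation. It measured -0.53, -0.03, -0.22 and 0.38 on the NNK arrays and 0.58, 0.98 and 0.65 on NNK+SECY 1, 3 and 4, its spot on NNK+SECY 2 being flagged and left out of the fit (0.84 ± 0.16; limma adjusted p = 0.0108); without NNK+SECY 3 it did not pass. Spry4, which dampens RAS-MAPK signalling, changed by 0.43 ± 0.10 and lost its call on removal of 6 of the 8 arrays, all but NNK 2 and NNK+SECY 1.

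Marker lists of the lung's cell types had 1 called member at most by the brightest probe. Of all genes, 0.31% were called higher and 1.45% lower. Alveolar type 2 (15 genes), type 1 (13), ciliated (21), alveolar macrophage (19), B (16) and neutrophil (10) markers had none called, with medians between -0.12 and 0.03. All 10 neutrophil markers lay below 0, as did 20 of 25 T and NK cell markers (median -0.04) and 13 of 16 cardiac muscle markers (median -0.16). Adipose tissue markers lay above 0 in 12 of 14 (median 0.07). Their mean ratio was -0.53 to 0.45 on the NNK+SECY arrays and -0.43 to 0.01 on the NNK arrays. Over the alternatives their median ran from -0.08 to 0.18. The club cell list held 1 called gene of 13, the Aldh1a1 already described, and had a median of 0.02. MHC class II genes, which present antigen on dendritic and other cells, had none called of 13, yet 12 lay below 0, their median was -0.25, and 6 had groups that did not overlap, against 8.33% of all probes. H2-Ab1 measured 0.29, 0.26, 0.13 and 0.20 on the NNK arrays and -0.24, -0.26, -0.17 and -0.12 on the NNK+SECY arrays, with no overlap. Its change was -0.42 ± 0.15 (limma adjusted p = 0.286), where the SE is drawn from all 16 arrays; in a fit of the 8 arrays alone 4 of the 13 were called lower, against 1.52% of all probes in that fit. The Cd74 change was -0.35 ± 0.13 and the H2-Aa change -0.35 ± 0.14.

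Markers of fibroblasts and smooth muscle lay below 0 in 17 of 20 genes (median -0.13), and genes of the extracellular matrix in 21 of 30 (median -0.13). The 1 called gene of both lists, against 1.45% of all genes called lower, was Mfap4, a protein of elastic fibres. It measured -0.38, 0.43, 0.17 and -0.03 on the NNK arrays and -1.22, -0.98, -0.55 and -0.54 on the NNK+SECY arrays. The groups did not overlap, although NNK 1 lay near the upper NNK+SECY arrays (-0.87 ± 0.17; limma adjusted p = 0.0119), and without NNK 2 the call was lost. Acta2, smooth muscle actin, read -0.19 on its brightest probe, which did not pass, and fell by 0.27 on another that did. Markers of mesothelium, the lung's outer lining, had none called of 10; their mean ratio was -0.01 to 0.06 on the NNK arrays and -0.24 to -0.03 on the NNK+SECY arrays, with a median change of -0.18. Whether the amount of lining or connective tissue in the sample bears on the genes that fell was not tested.

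Skeletal muscle markers had none called of 12 but moved on single arrays: their mean ratio was -0.26 to -0.13 on the NNK arrays and -0.35 to 0.75 on the NNK+SECY arrays. Myh1 and Tnnc2, proteins of fast muscle fibres, stood at 1.45 ± 0.58 and 1.15 ± 0.42.

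The called falls differed from the called rises in brightness, in dye and in how far other probes of the same gene followed. Of 305 lower genes, 133 (43.6%) were dimmer than the median tested probe, against 9 of 65 higher genes (13.8%). The median log2 intensity was 7.15 over the lower probes, 8.27 over the higher probes and 7.12 over all tested probes. The lower probes were thus about as bright as the tested probes in general, and the higher probes were brighter. Among the called probes, 33 lower and 2 higher were well above background in Cy5 on fewer than 4 arrays of a group. They entered through the other group alone. Among probes well above background in both dyes on all 8 arrays, 80 were called higher and 298 lower. Another probe could be read for 24 of the higher genes, and 15 of their 33 other probes were called the same way (45.5%), with a median change of 0.25. Another probe could be read for 79 of the lower genes, and 4 of their 103 other probes were called the same way (3.88%), with a median of -0.02. At least 2 probes were called for 12 higher genes and for 3 lower genes, which were Sox17, Ntrk2 and Acot6.

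**Figure D3:**
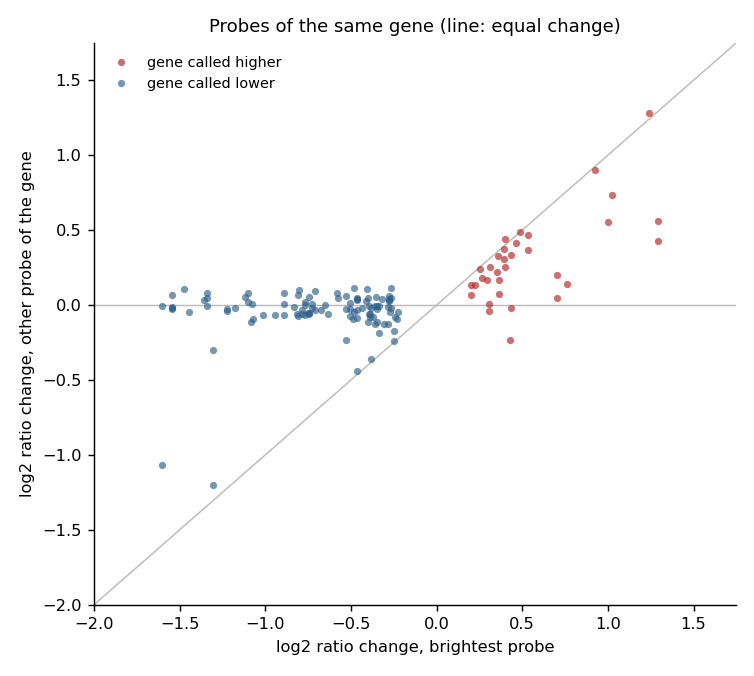
Log2 ratio change from NNK to NNK+SECY of the brightest probe of each called gene (horizontal axis) against each other tested probe of that gene (vertical axis), with genes called higher in red and lower in blue and a line of equal change. Of 33 other probes of higher genes 15 were called the same way, and of 103 other probes of lower genes 4 were, most of the latter lying along 0.

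Among the falls read by 2 or more probes was Sox17, a transcription factor of endothelial cells. It measured -0.00, 0.12, 0.00 and -0.02 on the NNK arrays and -0.48, -0.48, -0.42 and -0.39 on the NNK+SECY arrays. The NNK+SECY arrays were all lower, by -0.47 ± 0.09 (limma adjusted p = 0.00565) and -0.44 ± 0.07 on its bright probes; the other 2 of its 4 probes were dim and read 0.04 each. It was the 1 called gene of 20 endothelial markers, whose median was -0.10, against 1.45% of all genes called lower. Ntrk2, the receptor for brain-derived neurotrophic factor, measured 0.02, 0.74, 0.27 and -0.37 against -0.85, -1.47, -1.28 and -0.96. Both groups were spread widely but did not overlap, and its 3 probes fell by 1.31, 1.20 and 0.30 on the log2 scale.

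There were 25 lower genes with a symbol, of 201, whose brightness exceeded the median by more than 1 and whose Cy3 signal moved by less than 0.1; this selection was made after the values were seen. Igfbp3, a binding protein of insulin-like growth factors, measured -0.02, 0.07, -0.23 and -0.11 on the NNK arrays and -0.78, -0.74, -0.55 and -0.75 on the NNK+SECY arrays (-0.63 ± 0.08; limma adjusted p = 0.000478). All 4 NNK+SECY arrays were lower, while a dim second probe read -0.06. Mgp, an inhibitor of calcification made by smooth muscle and fibroblasts, measured 0.03, 0.04, 0.25 and -0.09 against -0.52, -0.53, -0.45 and -0.58 (-0.57 ± 0.10; limma adjusted p = 0.00262). Myl9, the regulatory light chain of smooth muscle myosin, fell by 0.40, Scx, a tendon transcription factor, by 0.41, and Trpv2, a cation channel, by 0.68. Cma1, a mast cell protease, was dim and fell by 0.31 ± 0.05. It was the 1 called gene of 9 mast cell markers, against 1.45% of all genes called lower.

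Some of the deepest falls lay near the median brightness of the tested probes (7.12, log2), and other probes of these genes mostly did not pass. Brightness here is the mean of both dyes over both groups. On the NNK+SECY arrays the Cy5 signal of Acot6 was lower than that, 5.85 to 6.61. Acot6, a peroxisomal thioesterase, measured 0.57, 0.39, 0.01 and 0.33 on the NNK arrays and -1.30, -0.84, -1.37 and -1.58 on the NNK+SECY arrays (-1.60 ± 0.24; limma adjusted p = 0.00132). Its other probes read -1.07, which was also called, and -0.01. Ero1b, an oxidase of protein folding, fell by 1.54 on its brightest probe and read -0.03 and -0.02 on its others. Lgr4, a receptor for R-spondins, fell by 1.55 with other probes at 0.06 and -0.01. Itgb8, an integrin subunit, fell by 1.48 with another probe at 0.11. On these 4 genes NNK+SECY 2 was the least low of the 4 NNK+SECY arrays. Terc, the telomerase RNA, was brighter (7.97) and had a single probe; it fell by 1.45, and there too NNK+SECY 2 was the least low.

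Some falls lay in the common pool as much as in the mouse RNA. Over the 392 lower probes the Cy5 signal changed by a median of -0.45 and the Cy3 signal by 0.18, whereas over the 89 higher probes the medians were 0.45 and -0.01. Cd3e, a T cell receptor component, was the 1 called gene of 25 T and NK cell markers, against 1.45% of all genes called lower. Its ratio change was -0.36, in which Cy5 moved by -0.05 and the pool's Cy3 by 0.31. Its other probe read 0.05. Its call was lost when any of NNK 2, NNK 3, NNK 4 and NNK+SECY 1 was left out. Ccl19, a chemokine of lymphoid tissue, had a ratio change of -0.73 with a Cy3 change of 0.34 and another probe at 0.01. For 6 lower probes both dyes were down by more than 1: Snord33, a small nucleolar RNA, changed by -3.63 in Cy5 and -2.64 in Cy3, and Clnk, Col4a6, Crtc3, Olfr62 and Entpd4 followed the same pattern. The spots of Snord33, Clnk and Col4a6 were flagged on NNK 1 and left out of the fit there. Other probes of Clnk, Col4a6 and Entpd4 read between -0.06 and -0.03. Cy3 held the same pool on every array, and the part that these Cy3 differences have in the ratios was not tested.

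Tested alone, the Cy5 signal differed between the groups for 2149 probes (7.09%) and the Cy3 signal for 5671 (18.7%; limma, adjusted p under 0.05). With 1 array left out the Cy5 count was 1031 (without NNK+SECY 2) to 1509 and the Cy3 count 3572 (without NNK+SECY 3) to 4808. Of the 89 higher probes, 62 were also called higher in Cy5 alone and 20 were called in Cy3 alone. Of the 392 lower probes, 196 were also called lower in Cy5 alone and 150 were called in Cy3 alone. Nqo1 rose by 1.62 in Cy5 and by 0.24 in Cy3, and Gsta3 by 1.02 in Cy5 with -0.01 in Cy3. Among other large rises, Cy3 rose by 0.32 for Gstp1, 0.31 for Ces1g, 0.28 for Gsta1 and Gpx2, 0.25 for Gstm3 and 0.18 for Gstm1. Each of these Cy3 changes was called, and the Cy5 changes of these genes were larger, between 1.11 and 1.55. The Cy3 changes of Srxn1 (0.14), Ces1f (0.08), Gbe1 (-0.07) and Txnrd1 (-0.04) were not called. Restricted after the data were seen to 15706 probes whose Cy3 signal moved by less than 0.1, the comparison called 35 higher and 55 lower, so that 38.9% of calls were rises, against 18.5% over all tested probes.

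**Figure D4:**
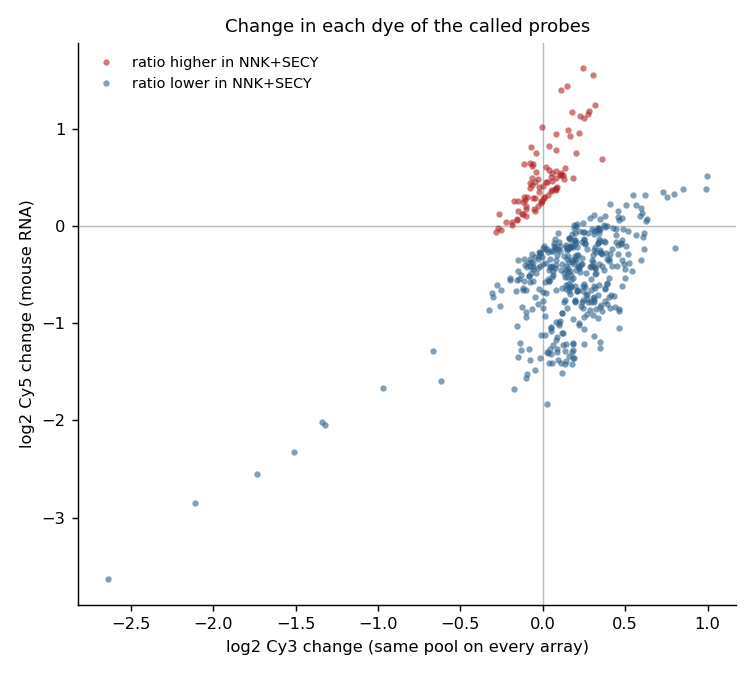
Log2 change from NNK to NNK+SECY in the Cy3 signal of the common pool (horizontal axis) and in the Cy5 signal of the mouse RNA (vertical axis) for the 89 probes with a higher ratio (red) and the 392 with a lower ratio (blue). The higher probes rise mainly along Cy5, with a median Cy3 change of -0.01, although the Cy3 signal tested alone differs for 20 of the 89. The lower probes have a median Cy3 change of 0.18, and 6 of them are down by more than 1 in both dyes.

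The same diet without NNK, SECY against Untreated, shares no array with the comparison above but lies on the same slide sets and has the same pool in Cy3. Its 8 arrays were scanned on another day, so scan day and NNK cannot be told apart where the diet changes with and without NNK are set against each other, the interaction included. It called 47 genes higher (0.224%) and 16 lower (0.0762%). Of the 65 genes higher with NNK, 41 were also called without it, which is 63.1% of the first list and 87.2% of the second. Over all 65 genes the changes were of like size, with medians of 0.42 with NNK and 0.40 without. Nqo1 rose by 1.43 ± 0.13 without NNK, Gsta3 by 1.01 ± 0.08, Txnrd1 by 0.81 ± 0.09, Gpx2 by 1.07 ± 0.11 and Ces1g by 1.48 ± 0.08, and the change with NNK differed from these by between -0.24 (Ces1g) and 0.01 (Gsta3). Of the 305 genes lower with NNK, 13 were called without it, which is 4.26% of the first list and 81.2% of the second, while 284 had the same sign. The median change of these 305 genes was -0.63 with NNK and -0.36 without. Both sets of genes were chosen by their change with NNK, so a smaller change without NNK can follow from the choice. These medians and shares thus cannot show whether the diet change differed with NNK.

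By array, the called lower probes had median log2 ratios of -0.53 to -0.28 on the NNK+SECY arrays and 0.10 to 0.30 on the NNK arrays, which lay mostly above the 0.00 to 0.17 of the Untreated arrays. On the SECY arrays they were -0.37, -0.29 and -0.45 on replicates 2 to 4 but 0.01 on replicate 1. The called higher probes had medians of 0.34 to 0.47 on all 8 arrays of both selenocystine groups. On the other 8 arrays they were -0.02 to 0.01. Both sets of probes were chosen by the difference between the NNK and NNK+SECY arrays, so their medians on those arrays follow partly from the choice.

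The difference between the diet changes, tested as an interaction, passed for 2 of 30311 probes (0.0066%; 1377 had an unadjusted p under 0.05). A probe of Stt3b, a subunit of the oligosaccharyltransferase, measured 0.48, 0.68, 0.43 and 0.63 on the NNK arrays and -0.06, -0.09, -0.16 and -0.22 on the NNK+SECY arrays. It fell by 0.69 ± 0.06 with NNK and stood at -0.07 without, an interaction of -0.62 ± 0.09 (limma adjusted p = 0.0294). It was the dimmest of 4 Stt3b probes, and the other 3 read -0.12, 0.25 and 0.24. A probe of the clone AK081879 fell by 0.65 with NNK and by 1.54 without (interaction 0.89 ± 0.12; limma adjusted p = 0.0294), with a Cy3 change of 0.42 and another probe at 0.00. Scd1 changed by 0.84 with NNK and -0.05 without (interaction 0.88 ± 0.23; limma adjusted p = 0.92), which did not pass. Nor did the interaction of Cma1 (-0.38; limma adjusted p = 0.394) or Psrc1 (-0.15). None of the 89 higher probes had a called interaction, so a difference between the diet changes with and without NNK was not detected for them; for Nqo1 the estimate was -0.05, for Gsta3 0.01 and for Txnrd1 -0.02.

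**Figure D5:**
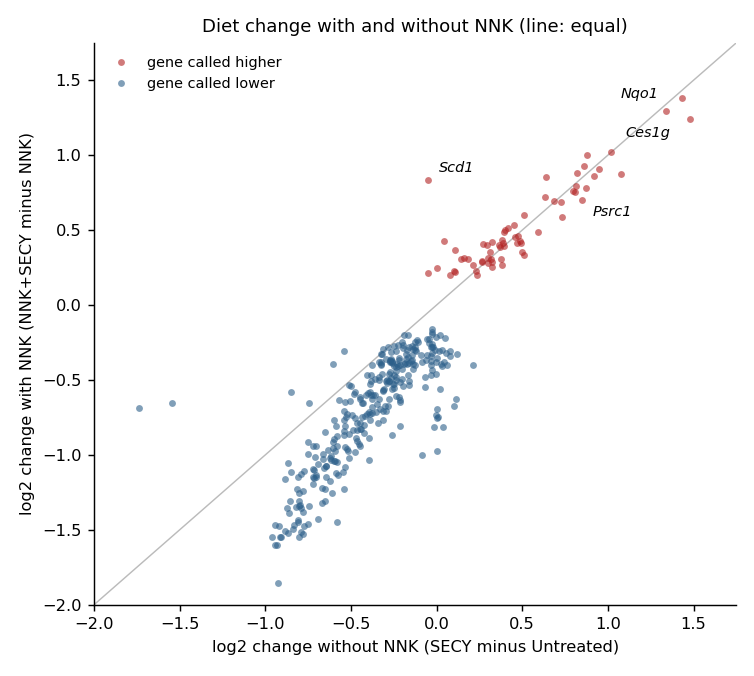
Log2 change with selenocystine without NNK (horizontal axis, SECY minus Untreated) and with NNK (vertical axis, NNK+SECY minus NNK) for the genes called in the NNK-injected mice, higher in red and lower in blue, with a line of equal change. Higher genes lie along the line (medians 0.40 without and 0.42 with NNK) apart from genes such as Scd1 (-0.05 without, 0.84 with). Lower genes lie mostly below it (medians -0.36 and -0.63). The genes were chosen by their change with NNK, so a smaller change without NNK can follow from the choice.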

How the data were processed

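Lung RNA of 16 mice was read on 2-colour Agilent arrays (4 per group; RQI above 9, per the labels' protocols). Each deposited scanner file holds spot intensities (mean and background signals) in both dyes and a log10 ratio; per the file headers, Feature Extraction was version 8.1.1.1. The authors' deposited value table is the log10 ratio put on the log2 scale, to within 0.005 per spot, with a median of 0. The alternatives with Agilent's processed signals and with these deposited values rest on output of the same software, so they are not independent. Here, intensities were background-corrected (limma 3.58.1 in R 4.3.3, normexp, offset 50), loess-normalized within arrays and turned into log2(Cy5/Cy3); control spots were left out, flagged spots dropped and spots of one probe averaged. Of 41174 probes (27703 gene names), 30322 were well above background often enough and 30317 could be tested. Group means of all 16 arrays were fitted with limma, with Benjamini-Hochberg adjustment over all tested probes and a threshold of 0.05. Single dyes were fitted after loess and Aquantile scaling. The number of arrays limits the precision.

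Mice were not treated as paired by replicate number. The deviations of same-numbered NNK and NNK+SECY arrays correlated at 0.26, -0.05, -0.14 and 0.04, and those of differently numbered arrays at -0.25 to 0.31. So few correlations cannot decide whether mice were paired. Arrays of the same replicate number also shared a slide within each slide set. Fits were also run on simulated data with independent noise and planted changes. The simulated data held no slide or Cy3 effect, so that run does not bear on either.

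Genes named were the 12 largest non-overlapping calls each way, the same with a Cy5 change of at least 0.5 of the ratio change, up to 4 called members of each of 49 lists, and a fixed set read whatever their values; others are said to have been chosen later or are members of a list. The members, lists and rule were chosen with earlier results of these data known. Promoter windows came from RefSeq tables (GRCm38.p6). Alternatives covered background correction, normalization, filters, probe choice, blocks, thresholds and each array left out.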

Additional observations from a re-analysis of the deposited data

Results flagged for a closer look

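Within the groups of 4 arrays, 10 of 154 gene-by-group sets had 1 array standing apart, and chance alone flags about 1 in 20. Selenop read 0.76 on NNK+SECY 3 against -0.06 to 0.05 on the others, and Cbr3 read 0.209 on NNK 1 against -0.02 to 0.00. Abcc1 read 0.158 on NNK+SECY 4 against 0.01 to 0.03. Creg1 read 0.109 on NNK 3, Cd74 0.0974 on NNK 2 and Sox17 0.115 on NNK 2, each the highest of its group. Igfbp3 read -0.547 on NNK+SECY 3 and Cma1 -0.135 on NNK+SECY 1, each the least low of its group. Hmox1 read -0.225 on NNK+SECY 2, the lowest of its group, and Mgmt -0.0229 on NNK+SECY 2, the highest.

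The diet change differed with and without NNK by -0.621 for the dim probe of Stt3b and by 0.891 for AK081879, by the interaction test (limma adjusted p = 0.0294 each). In both cases other probes of the gene did not show the difference.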

How the results depend on the processing

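The 481 called probes became 318 at an adjusted p under 0.01 (51 higher, 267 lower), 2 in a test against a 1.5-fold change (both Ces1g) and 90 among probes with a Cy3 change under 0.1 (35 higher, 55 lower; added after seeing the data, with fewer probes tested). Leaving out 1 array gave 362 (without NNK 2) to 480 (without NNK 1). The other settings gave 370 (1 probe per gene) to 709 (array weights); leaving out SECY 3, which agreed least with its group and was removed after seeing the data, gave 640. With a block for the replicate number, the counts were 531 for the ratio, 3471 in Cy5 alone and 8575 in Cy3 alone. Without it they were 481, 2149 and 5671. Leaving out 1 array gave 1031 to 1509 in Cy5 and 3572 to 4808 in Cy3. The interaction had 0 calls on the deposited table (1462 at an unadjusted p under 0.05; smallest limma adjusted p 0.323), 4 with slide as a random block (correlation 0.121), 3 with array weights, and 2 with the replicate block, where 5031425E22Rik took the place of Stt3b.

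No called direction among the 68 named genes reversed over the 23 to 25 alternatives each could be fitted in, whereas uncalled values near 0 could change sign (Gpx1 -0.06 to 0.10, Selenop -0.07 to 0.21); no setting moved the median of all probes by more than 0.01. The count of called glutathione S-transferases was 4 to 11 over 23 alternatives at the same threshold, and 9 or more in all but the Cy3 restriction. That restriction left out the brightest probes of Gstp1, Gsta1, Gstm1, Gstm3 and Gstm5, whose Cy3 signal rose by more than 0.1. The count of p53 targets was 1 to 7. Slide and diet cannot be told apart, and only 4 of 103 other probes of the lower genes were called the same way.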

Other observations

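No gene was called in the glucocorticoid or interferon lists. Genes of the glucocorticoid response and the metallothioneins lay above 0 in 13 of 17 (median 0.21), but the median was 0.02 without NNK+SECY 2 and 0.45 without NNK+SECY 3. Genes of the type I interferon response lay above 0 in 5 of 23 (median -0.08). Of the clock genes, Dbp stood at -0.75 ± 0.43, Arntl at 0.32 ± 0.19 and Per2 at -0.26 ± 0.30, none passing (limma adjusted p between 0.62 and 0.848). Dbp read 0.63 and 0.81 on NNK 3 and NNK 4 and -0.21 and -0.90 on NNK 1 and NNK 2, a spread within the group wider than the difference between the groups. Proliferation genes had 1 called of 34, against 1.45% of all genes called lower. This was Birc5 (-0.62 ± 0.13), which was down in both dyes (-1.29 in Cy5 and -0.66 in Cy3). Its spot on NNK 1 was flagged and left out, and its call was lost in 8 of 24 alternatives, including Agilent's processed signals, the authors' deposited values and the removal of NNK 2, NNK 4, NNK+SECY 1 or NNK+SECY 2.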
